A study of Mus musculus with 12 samples.

Results

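The type I interferon-stimulated genes described here are 33 genes of the mouse lung, chosen by symbol from the 55487 genes in the deposited count table. All 33 were in the table, and all 33 were among the 18407 genes with enough counts to be tested. They were followed in whole lung of C57BL/6NCr mice, an inbred C57BL/6 substrain, at 4 ages, with 3 libraries for each age. The ages were 6, 12, 20 and 30 months, and are written as 6M to 30M. The labels name no treatment, genotype or sex, so the groups differ by age alone as far as they are described, and 6M is the youngest age. The comparison addresses which of these transcripts differ between old and younger lungs.

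Type I interferons are cytokines that cells release after sensing viral or misplaced nucleic acid. They bind the receptor made of Ifnar1 and Ifnar2, whose kinases Jak1 and Tyk2 phosphorylate Stat2. With Irf9 this is part of the complex ISGF3, which enters the nucleus and binds a short promoter element, the interferon-stimulated response element (ISRE). The genes it switches on block viral replication, add to the sensing of nucleic acid and feed back on the pathway. In the lung, epithelial cells, macrophages and monocytes are all known to respond in this way.

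Promoters are shown first because that element is what these genes are known to share. RefSeq promoters (build GRCm38.p6, 250 bases before to 50 bases after a start site) were matched for 24 of the 33 genes. Mx1, Mx2, Zbp1, Rtp4, Parp14, Dhx58, Oas2, Usp18 and Ifi27l2a are named only. The ISRE was searched as GAAANNGAAA on both strands, so that TTTCNNTTTC is the same element on the other strand. It was present in 13 of the 24 genes (54.2%), against 3.44% of all 32851 promoters. A second interferon element, GAS, searched as TTCNNNGAA on both strands, was present in 5 of the 24 (20.8%), against 8.30% of all promoters. These are matches of letters and not measured binding. The 200 bases before the start site of 6 genes follow, 5′ to 3′ on the gene's strand, with each ISRE match in capitals.

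Isg15 (chr4:156200819-156201018, minus strand): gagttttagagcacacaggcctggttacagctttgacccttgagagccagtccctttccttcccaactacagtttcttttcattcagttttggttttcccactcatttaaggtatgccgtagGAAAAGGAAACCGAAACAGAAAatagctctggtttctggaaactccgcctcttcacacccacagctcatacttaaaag
Ifit1 (chr19:34640689-34640888, plus strand): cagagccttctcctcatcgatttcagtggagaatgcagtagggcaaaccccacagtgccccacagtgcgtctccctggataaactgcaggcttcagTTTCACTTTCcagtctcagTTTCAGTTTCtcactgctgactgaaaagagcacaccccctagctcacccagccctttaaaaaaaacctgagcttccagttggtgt
Ifit3 (chr19:34583329-34583528, plus strand): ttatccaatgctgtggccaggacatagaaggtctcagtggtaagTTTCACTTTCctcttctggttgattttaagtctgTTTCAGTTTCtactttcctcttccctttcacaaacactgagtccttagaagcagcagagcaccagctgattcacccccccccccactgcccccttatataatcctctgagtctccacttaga
Ifit3b (chr19:34607757-34607956, plus strand): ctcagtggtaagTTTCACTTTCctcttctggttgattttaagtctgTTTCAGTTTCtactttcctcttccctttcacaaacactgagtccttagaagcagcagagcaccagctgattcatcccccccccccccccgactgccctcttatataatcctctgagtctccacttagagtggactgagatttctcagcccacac
Oas3 (chr5:120777660-120777859, minus strand): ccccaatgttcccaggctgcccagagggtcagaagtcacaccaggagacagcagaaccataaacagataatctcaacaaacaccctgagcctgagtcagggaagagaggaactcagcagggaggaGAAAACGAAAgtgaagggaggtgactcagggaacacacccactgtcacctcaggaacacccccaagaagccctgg
Rsad2 (chr12:26456453-26456652, minus strand): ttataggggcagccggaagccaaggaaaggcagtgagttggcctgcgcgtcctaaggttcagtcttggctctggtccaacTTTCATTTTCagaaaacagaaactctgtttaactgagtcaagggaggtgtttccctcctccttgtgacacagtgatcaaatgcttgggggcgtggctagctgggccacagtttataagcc

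Isg15, whose promoter is the textbook example of an ISRE, held 3 overlapping matches that begin 78, 72 and 66 bases before the start. Ifit1, Ifit3 and Ifit3b held 2 matches each, all on the strand opposite to the gene, and the promoters of the neighbours Ifit3 and Ifit3b carried the same 2 elements with the same bases between them. Oas3 and Rsad2 held 1 match each. Many of the genes also lie side by side in the genome. Of the 33, on 14 chromosomes, 13 sit in 5 clusters as the deposited coordinates give them (GRCm38). The 4 Ifit genes span 99.3 kb of chromosome 19 (34550694 to 34650009), Oas1a, Oas2 and Oas3 span 177 kb of chromosome 5 (120730333 to 120907521), and Rsad2 and Cmpk2 span 37.1 kb of chromosome 12 (26442746 to 26479837).

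At 30M the interferon-stimulated genes were higher than at any younger age in their mean level, but few passed the test, and the 3 libraries of 30M differed widely. All 33 had their highest mean CPM (counts scaled to a library of 1000000 counts, with TMM scaling) at 30M, a pattern seen in 24.1% of all tested genes. Against 6M, 5 of the 33 rose and 0 fell at an adjusted p under 0.05 (edgeR's quasi-likelihood test with Benjamini-Hochberg adjustment over all genes), where 1.93% of all tested genes rose and 0.0272% fell. At an unadjusted p under 0.05 there were 30 of 33, against 11.6% of all genes. The median log2 fold change of the 33 was 1.32, with a range of 0.21 to 2.90, where that of all tested genes was 0.0028. In bulk tissue, more cells of a type that expresses these genes and more RNA per cell cannot be told apart. Whether each library came from its own mouse is not stated in the labels, so the p-values reflect library-to-library spread, which may be technical.

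**Figure D1:**
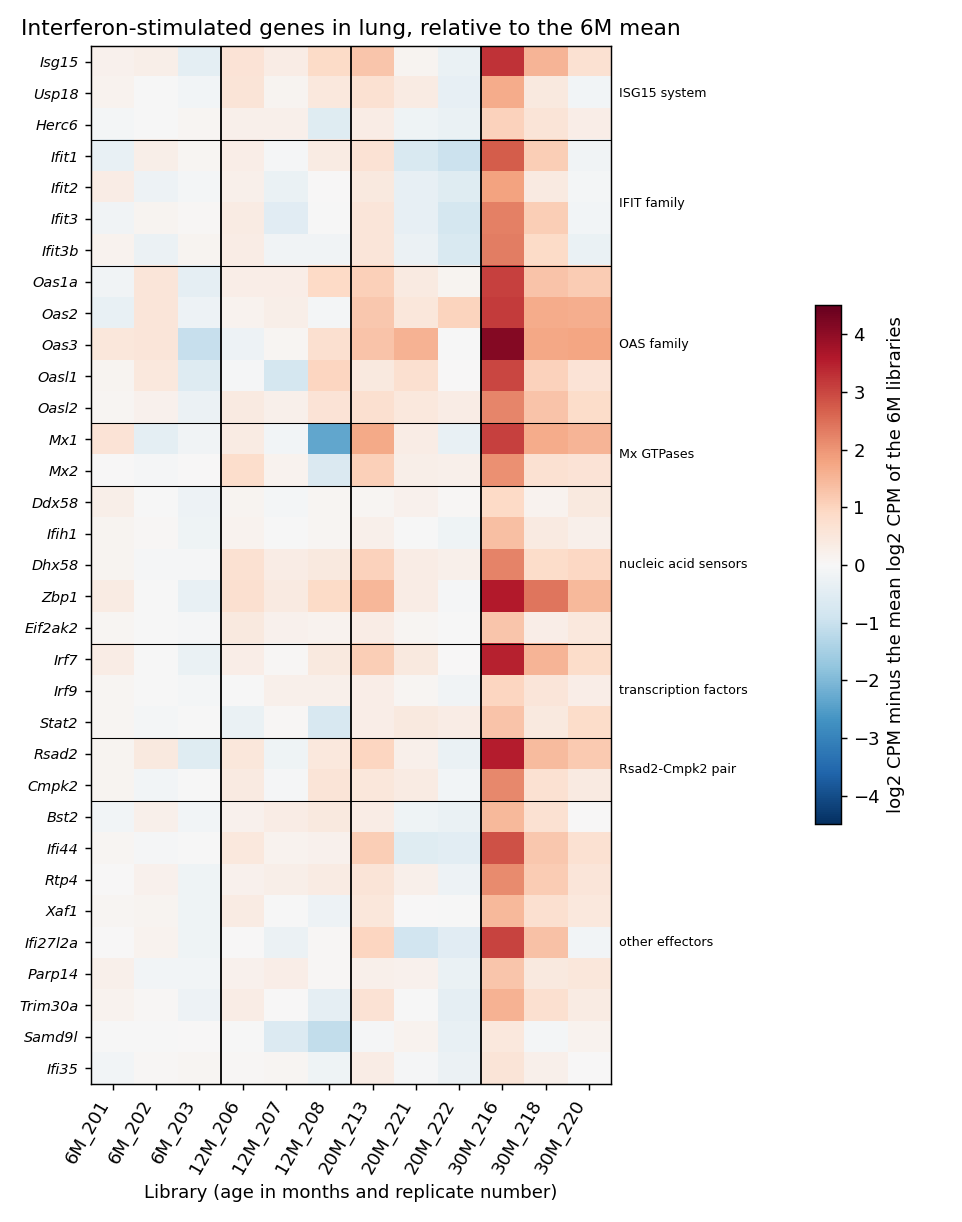
Heat map of the 33 genes (rows, by group) in the 12 libraries (columns, ages from 6M to 30M), coloured by log2 CPM minus the mean log2 CPM of the 6M libraries. The column 30M_216 is the reddest in every row, with a median of 2.16, while 30M_218 and 30M_220 have medians of 0.816 and 0.477.

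The oligoadenylate synthetases, which make the second messenger that activates RNase L, had the highest median log2 fold change of the groups of genes. Oas2 and Oasl2 rose against 6M by edgeR, DESeq2 and limma voom. Limma voom was run here and below with a quality weight for each library. Oas1a, Oas3 and Oasl1 were not called by edgeR, whereas limma voom called Oas1a and Oas3 and DESeq2 called all 3. The median of the 5 was 2.09. Oas2 was at 9.55, 17.6 and 10.2 CPM at 6M, 13.4, 14.5 and 11.3 CPM at 12M, 27.8, 17.2 and 23.8 CPM at 20M, and 106, 38.1 and 37.8 CPM at 30M. Every 30M library lay above every younger library, and 30M_216 was far above the other two. Against 6M this was a log2 fold change of 2.28 (SE 0.396, adjusted p = 0.0128). The call was lost without 6M_201 (0.0593) or 6M_203 (0.0988), and without 30M_216 the log2 fold change was 1.60 (0.0166).

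Oasl2, an Oas-like protein with a ubiquitin-like tail, was at 42.2, 45.6 and 33.1 CPM at 6M, 53.0, 47.2 and 61.1 CPM at 12M, 66.0, 55.1 and 50.1 CPM at 20M, and 183, 97.4 and 71.2 CPM at 30M. The 30M libraries again lay above all 9 others, with 30M_220 close to the highest of 20M. Against 6M it rose by 1.54 on the log2 scale (SE 0.281, adjusted p = 0.0144), and the call was lost without 6M_201 (0.0533), 6M_202 (0.0534) or 6M_203 (0.109). Oas3 had the highest estimate of all 33, 2.90 (SE 0.716, adjusted p = 0.0719). Its level was 48.9, 9.35 and 9.5 CPM at 30M, against 3.88, 3.96 and 1.21 CPM at 6M, so the groups did not overlap, yet 30M_216 alone was above 10 CPM. Oas1a averaged 30.8 ± 25.5 CPM at 30M and 7.23 ± 2.66 CPM at 6M (SD, n = 3 each). Its adjusted p was 0.063, and 40.9% of the 100-base stretches of its exons also occur in Oas1g, so its counts are uncertain. Oasl1, which in the mouse is known to restrain translation of Irf7, averaged 12.1 ± 11.4 CPM at 30M and 3.14 ± 1.14 CPM at 6M (SD, n = 3 each), with an adjusted p of 0.181.

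Among the nucleic acid sensors, Zbp1 and Dhx58 rose and Ddx58, Ifih1 and Eif2ak2 were not called by edgeR or DESeq2, while limma voom also called Eif2ak2. Zbp1 binds Z-form nucleic acid and can start necroptosis. Its level was 10.7, 8.17 and 6.47 CPM at 6M, 13.6, 10.9 and 15.3 CPM at 12M, 23.9, 10.4 and 8.05 CPM at 20M, and 99.4, 44.5 and 22.8 CPM at 30M. All 30M libraries were above all of 6M and 12M, but 30M_220 lay just below 20M_213. It rose by 2.71 on the log2 scale against 6M (SE 0.528, adjusted p = 0.0242). It lost its call without 6M_201 (0.0714), 6M_202 (0.116) or 6M_203 (0.165), and without 30M_216 the log2 fold change was 1.99 (0.0446).

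Dhx58 encodes LGP2, which modulates the RNA sensors encoded by Ddx58 (RIG-I) and Ifih1 (MDA5). It was at 7.84, 6.85 and 6.95 CPM at 6M, 11.8, 9.10 and 9.71 CPM at 12M, 15.1, 9.13 and 8.42 CPM at 20M, and 34.3, 12.8 and 14.0 CPM at 30M. The 30M libraries were above all of 6M and 12M, and 20M_213 lay within their range. Its rise against 6M was 1.49 on the log2 scale (SE 0.350, adjusted p = 0.0478). This call stands close to the threshold and was lost with any 6M library left out (0.129 to 0.220), and likewise any 12M library, 20M_221 or 30M_216, without which the log2 fold change was 0.89 (0.124).

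Ddx58 moved much less. It was at 59.9, 49.2 and 42.6 CPM at 6M, 53.9, 47.6 and 52.8 CPM at 12M, 52.6, 57.7 and 51.4 CPM at 20M, and 93.1, 55.4 and 67.7 CPM at 30M. The 30M_218 library lay inside the 6M range, and the log2 fold change was 0.51 (SE 0.180, adjusted p = 0.236). Ifih1 averaged 63.1 ± 28.2 CPM at 30M and 37.7 ± 4.05 CPM at 6M, and Eif2ak2, the kinase PKR, averaged 40.6 ± 15.2 CPM at 30M and 24.4 ± 1.20 CPM at 6M (SD, n = 3 each). Their adjusted p-values were 0.177 and 0.125.

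**Figure D2:**
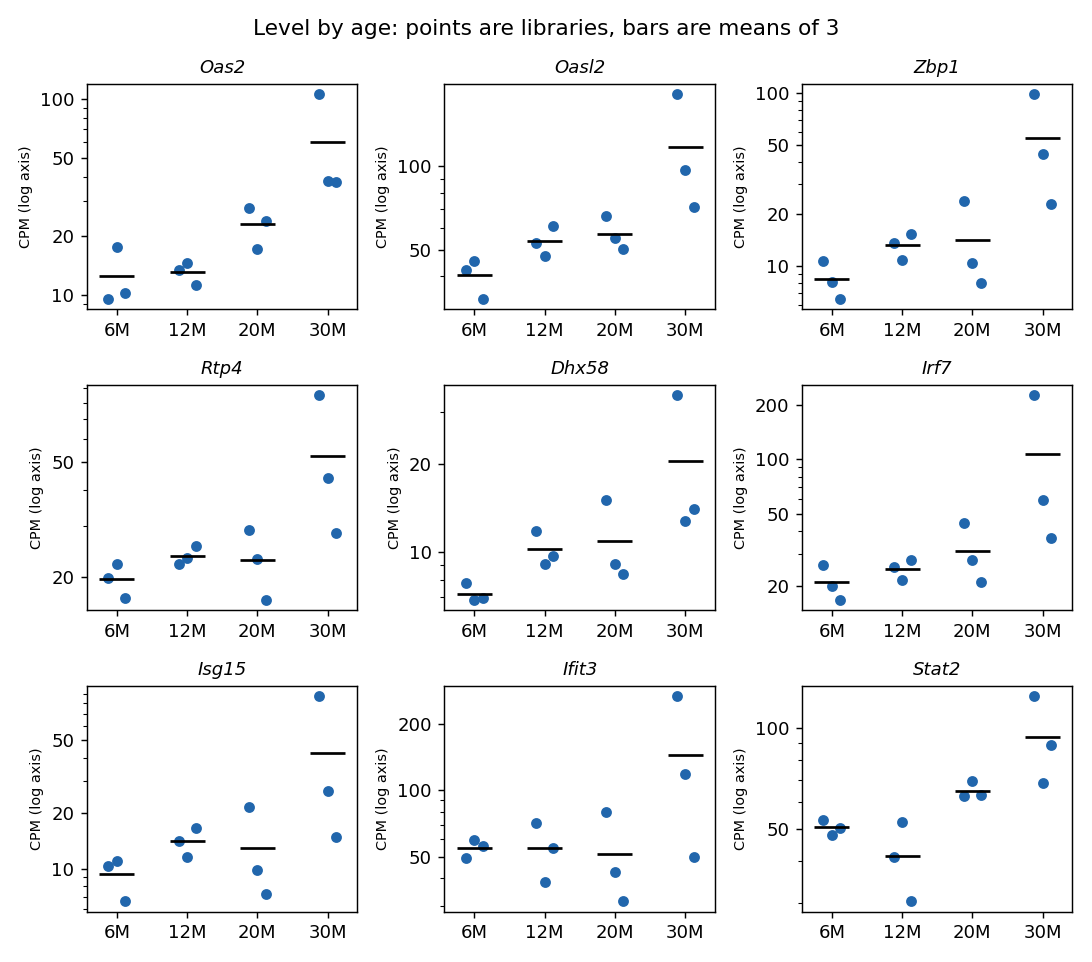
Level of 9 genes (CPM, log axis) by age, with each library as a point and the mean of 3 as a bar. Oas2 and Oasl2 have all 30M points above all younger ones, while for Ifit3 one 30M point, at 50.1 CPM, lies within the 6M range of 49.3 to 59.6 CPM.

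The Ifit genes, whose products bind viral RNA that lacks the host cap, were above the 6M level in 30M_216 and 30M_218 but not in 30M_220. None of the 4 was called against 6M by edgeR, limma voom or DESeq2, though 3 of 4 had an unadjusted p under 0.05 with edgeR. Ifit1 was at 25.1, 37.9 and 33.5 CPM at 6M, 38.7, 30.5 and 41.0 CPM at 12M, 49.7, 19.5 and 16.1 CPM at 20M, and 212, 69.1 and 28.1 CPM at 30M. Ifit3 was at 49.3, 59.6 and 56.3 CPM at 6M, 71.3, 38.7 and 54.7 CPM at 12M, 80.0, 42.6 and 31.5 CPM at 20M, and 266, 119 and 50.1 CPM at 30M. For both genes 30M_216 and 30M_218 were above every 6M library, while 30M_220 was within the 6M range and 20M_221 and 20M_222 were below it.

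The log2 fold change against 6M was 1.68 for Ifit1 (SE 0.645, adjusted p = 0.321) and 1.40 for Ifit3 (SE 0.520, adjusted p = 0.291). Ifit2 and Ifit3b showed the same order, with 109, 40.8 and 29.3 CPM and 74.1, 27.5 and 12.1 CPM in 30M_216, 30M_218 and 30M_220. In 30M_220, Ifit2 was within the 6M range and Ifit3b, at 12.1 CPM, was below its 6M libraries (16.6, 12.5 and 16.2 CPM). Ifit3 and Ifit3b are near copies, sharing 31.7% and 27.4% of their 100-base exon stretches with each other, so how their reads were divided is uncertain.

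As family medians over the 6M mean (log2), Oas genes stood at 3.09, 1.28 and 1.13 in 30M_216, 30M_218 and 30M_220, and Ifit genes at 2.28, 0.988 and -0.153. The Ifit median was also low in 20M_221 and 20M_222, at -0.359 and -0.742, where the Oas median was 0.517 and 0.131. These 3 libraries are those in which, across all genes, level over the 6M mean rose most with GC content (Spearman 0.305 in 30M_220, 0.336 in 20M_221 and 0.441 in 20M_222, against -0.0831 to 0.221 in the others). The median GC content was 46.0% for the Ifit genes, 52.0% for the Oas genes and 50.6% for all tested genes. The Oas median exceeded the Ifit median by 1.28 in 30M_220, 0.876 in 20M_221 and 0.873 in 20M_222. This gap was also 0.812 in 30M_216, where the Spearman value was 0.0469, and ran from -0.468 to 0.734 in the remaining libraries. The part of GC content in the gap between the families was not tested gene by gene. With a term for these 3 libraries in the fit, Ifit1, Ifit3 and Ifit3b were called against 6M, and 18 of the 33 were called in all (2.53% of all genes rose in that fit). The term marks the 3 libraries as a group and holds no GC values. It takes up whatever sets them apart, so the part of GC content was not tested by that fit.

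The ISG15 system conjugates a ubiquitin-like protein to new proteins, with Herc6 as the ligase in the mouse and Usp18 as the protease that removes it and also dampens the receptor. Isg15 was at 10.3, 11.0 and 6.63 CPM at 6M, 14.1, 11.6 and 16.6 CPM at 12M, 21.6, 9.81 and 7.31 CPM at 20M, and 87.0, 26.5 and 14.9 CPM at 30M. All 30M libraries were above all of 6M, but 30M_220 was within the range of 12M and below 20M_213. Its log2 fold change against 6M was 2.20 (SE 0.596, adjusted p = 0.106), and limma voom and DESeq2 called it. Usp18 was at 78.8, 33.6 and 22.6 CPM at 30M, against 27.2, 24.4 and 22.5 CPM at 6M, so the groups overlapped. Its log2 fold change of 0.86 (SE 0.389, adjusted p = 0.421) rested largely on 30M_216. Without that library its estimates against 12M and 20M turned to -0.22 and -0.10. Herc6 averaged 26.0 ± 6.74 CPM at 30M and 16.3 ± 1.06 CPM at 6M (SD, n = 3 each), with an adjusted p of 0.267.

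Of the transcription factors, Irf7 is itself induced by interferon and drives the later wave of interferon production. It was at 25.9, 20.0 and 16.6 CPM at 6M, 25.2, 21.4 and 27.6 CPM at 12M, 44.1, 27.6 and 21 CPM at 20M, and 226, 59.1 and 36.8 CPM at 30M. The 30M libraries were above all of 6M and 12M, and 20M_213 was above 30M_220. With a log2 fold change of 2.36 against 6M, Irf7 was not called by edgeR (SE 0.579, adjusted p = 0.0745). Stat2 was at 53.1, 48.0 and 50.4 CPM at 6M, 41.2, 52.5 and 30.4 CPM at 12M, 62.6, 69.2 and 62.9 CPM at 20M, and 124, 68.4 and 89.0 CPM at 30M. It was not called against 6M by edgeR (log2 fold change 0.89, SE 0.213, adjusted p = 0.0519). Unlike most of the 33, its second highest library at 30M was 30M_220. Irf9 averaged 79.4 ± 18.6 CPM at 30M and 51.1 ± 2.98 CPM at 6M (SD, n = 3 each), and its libraries of 30M were above all 9 younger ones. Irf7, Stat2 and Irf9 were all called against 6M by limma voom and by DESeq2, and Irf7 and Irf9 by edgeR without 30M_220.

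Among the remaining effectors, Rtp4, a receptor transporter protein known for antiviral activity, was the only one called against 6M by edgeR. Limma voom and DESeq2 called it too, with Mx1, Rsad2, Cmpk2, Ifi44, Parp14 and Xaf1, and limma voom also Trim30a. It was at 19.9, 22.2 and 17.0 CPM at 6M, 22.2, 23.3 and 25.6 CPM at 12M, 29.2, 23.2 and 16.7 CPM at 20M, and 84.9, 44.0 and 28.4 CPM at 30M. The 30M libraries were above all of 6M and 12M, and 20M_213 was just above 30M_220. It rose by 1.41 on the log2 scale (SE 0.325, adjusted p = 0.0473). The call was lost with any library of 6M (0.132 to 0.246) or 12M left out, and likewise 20M_213, 20M_221, 30M_216 (0.111) or 30M_218 (0.0776).

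Mx1 and Mx2 encode dynamin-like GTPases, which C57BL/6 mice are known to carry as non-functional alleles. Mx1 was at 4.25, 1.98 and 2.43 CPM at 6M, 3.61, 2.53 and 0.422 CPM at 12M, 9.16, 3.50 and 2.14 CPM at 20M, and 24.4, 9.10 and 8.28 CPM at 30M. It was higher in every 30M library than in every 6M and 12M library, and 20M_213 lay within the 30M range. The estimate against 6M was 2.26 on the log2 scale (SE 0.692, adjusted p = 0.161). Bst2, or tetherin, which holds budding virus at the cell surface, was at 78.4, 99.2 and 78.8 CPM at 6M, 96.4, 107 and 114 CPM at 12M, 107, 73.5 and 68.9 CPM at 20M, and 232, 136 and 87.0 CPM at 30M. There 30M_220 fell within the 6M range, and the log2 fold change was 0.83 (SE 0.285, adjusted p = 0.222).

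Rsad2 encodes viperin, which makes a chain-terminating nucleotide, and its neighbour Cmpk2 encodes a mitochondrial nucleotide kinase. Rsad2 was at 74.4, 17.4 and 14.4 CPM at 30M, against 6.87, 8.5 and 4.28 CPM at 6M, with no overlap (log2 fold change 2.43, SE 0.600, adjusted p = 0.0716). Cmpk2 was at 102, 36.5 and 29.8 CPM at 30M, against 24.9, 20.7 and 22.6 CPM at 6M, also without overlap (1.30, SE 0.390, adjusted p = 0.149). Ifi44 averaged 33.9 ± 27.9 CPM at 30M and 8.98 ± 0.507 CPM at 6M (SD, n = 3 each), with an adjusted p of 0.132. Ifi27l2a, a small membrane protein gene, had the widest spread at 30M, with 356, 107 and 39.6 CPM, against 43.8, 47.5 and 37.9 CPM at 6M. Like Ifit1, Ifit2 and Ifit3, it was within the 6M range in 30M_220.

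Xaf1, Parp14 and Trim30a had log2 fold changes of 0.95, 0.78 and 0.97 against 6M, with adjusted p-values of 0.0831, 0.100 and 0.197. The smallest differences were those of Samd9l and Ifi35. Samd9l, a restriction factor, was at 118, 78.6 and 95.1 CPM at 30M, against 83.5, 83.3 and 86.1 CPM at 6M (0.21, SE 0.232, adjusted p = 0.846). Ifi35 averaged 80.1 ± 15.4 CPM at 30M and 65.8 ± 4.78 CPM at 6M (SD, n = 3 each), and 16.8% of its exon bases overlap an antisense gene. Per kilobase of exon, the highest level at 30M was that of Ifi27l2a (361 CPM per kb), followed by Bst2 (168) and Ifit3 (83.1), and the lowest were those of Mx2 (1.92) and Herc6 (2.80).

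**Figure D3:**
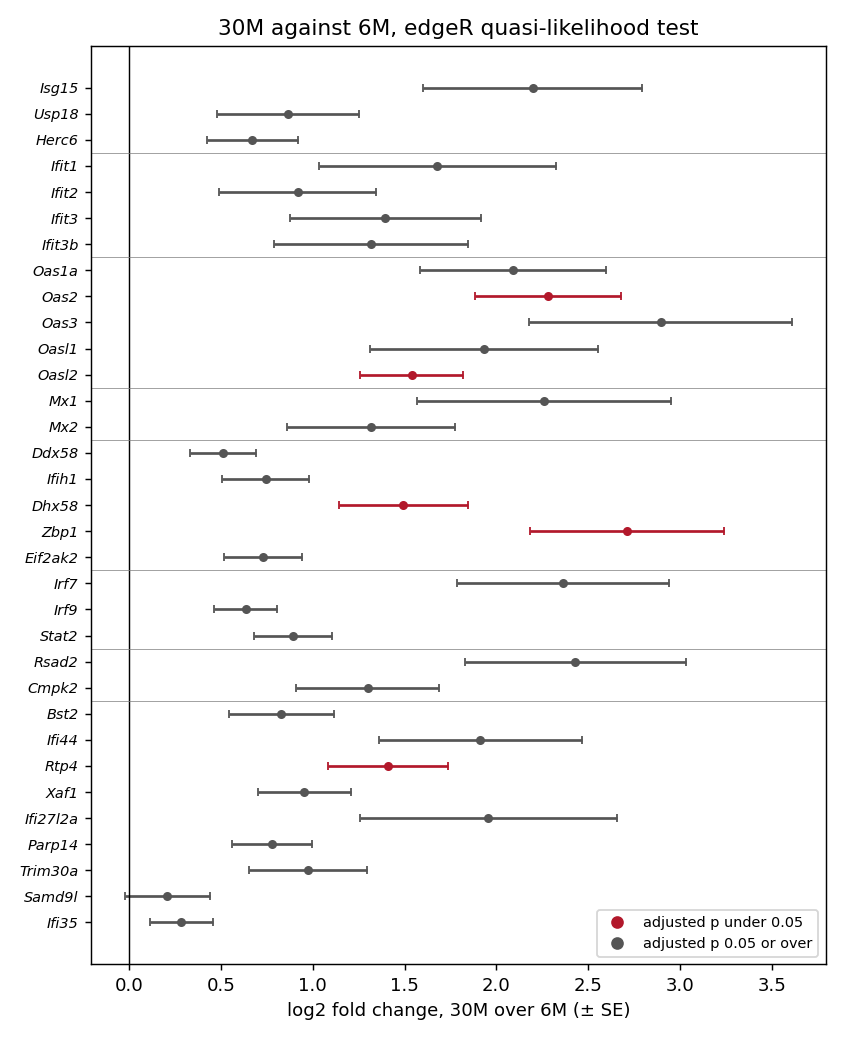
The log2 fold change at 30M over 6M with its standard error (edgeR's quasi-likelihood fit, all 12 libraries) for the 33 genes, by group. All 33 estimates lie above 0, between 0.21 and 2.90, and the 5 in red are Oas2, Oasl2, Dhx58, Zbp1 and Rtp4.

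Against 12M, 2 of the 33 rose and 0 fell, where 0.657% of all tested genes rose and 0.0543% fell, and the median log2 fold change was 1.12. At an unadjusted p under 0.05 there were 30, against 10.9% of all genes. These 2 were Oas2 (2.21, SE 0.395, adjusted p = 0.0305) and Stat2 (1.18, SE 0.214, adjusted p = 0.0295). Both calls were lost without 12M_206, 12M_207 or 12M_208 (0.0839 to 0.146), and that of Stat2 also without 30M_216 (0.0823). Few genes of any kind were called in those fits. Of all genes, 0.112% rose without 12M_206, 0.00% without 12M_207, 0.0106% without 12M_208 and 0.212% without 30M_216. Against 20M, 0 of the 33 were called by edgeR, where 0.212% of all genes rose, and 29 had an unadjusted p under 0.05, against 8.89% of all genes. DESeq2 called 6 of the 33 and limma voom 5, against 0.818% and 1.02% of all genes. The median log2 fold change against 20M was 1.04. Without 30M_216 the medians were 0.547 against 12M and 0.441 against 20M. Zbp1, with 1.98 (SE 0.508), and Rsad2, with 2.08 (SE 0.588), had adjusted p-values of 0.185 and 0.236 there. The comparisons of 30M with 6M, 12M and 20M share the 30M libraries, so they are not independent of each other.

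Between the younger ages none of the 33 was called. At 20M against 6M, at 12M against 6M and at 20M against 12M, 0 of the 33 were called by edgeR, DESeq2 or limma voom, where 0.0163%, 0.00% and 0.00% of all genes rose with edgeR. At an unadjusted p under 0.05 there was 1 gene of the 33 in each of these comparisons, against 7.80%, 3.60% and 11.2% of all genes. The median log2 fold change of the 33 was 0.22 for 20M against 6M, 0.16 for 12M against 6M and 0.06 for 20M against 12M, with 26, 26 and 18 of the 33 above 0. These medians rested on single libraries. For 20M against 6M the median was -0.06 without 20M_213, with 14 of 33 above 0, and 0.39 without 20M_222, with 33 above 0. For 20M against 12M it was -0.24 without 20M_213, with 8 above 0, and 0.17 without 20M_222, with 30 above 0. For 12M against 6M it was 0.08 without 6M_203. The 20M_222 library also differed in skeletal muscle markers, whose sum was 2180 CPM there and 10.1 to 40.6 CPM in the other libraries. The part of this in its levels of the 33 genes was not tested. With a term for 20M_221, 20M_222 and 30M_220 the medians of 20M were 0.90 against 6M and 0.63 against 12M. With these libraries left out they were 0.56 and 0.47. That fit left 20M_213, the library with the highest median of the 33 genes at 20M, as the only library of 20M. In the fit with a term it was the only 20M library outside the term, so both pairs of medians rest largely on 20M_213. Mean CPM followed the order of age from 6M to 30M in 13 of the 33, against 6.35% of all tested genes. A slope per month over the 4 ages was above 0 at an adjusted p under 0.05 for 12 of the 33 (2.5% of all genes), and below 0 for 0 of them (0.179%), with 31 of 33 at an unadjusted p under 0.05 (13.3%). These were Oas2, Oasl2, Zbp1, Oas3, Stat2, Dhx58, Oas1a, Irf7, Rsad2, Rtp4, Xaf1 and Mx1. Oas2 had a slope of 0.099 log2 per month (SE 0.0147, adjusted p = 0.00297). Without 30M_216 or without 6M_203, 4 of the 33 had such a slope (1.90% and 1.19% of all genes). Without 6M_202, 12M_206, 12M_207 or 30M_218 there were 6 or 7 (1.45% to 1.97% of all genes).

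The spread within 30M is the main feature of these genes. The 30M_216 library held the highest value of all 12 libraries for 33 of 33 genes, against 6.92% of all tested genes. It was the highest of the 3 libraries of its age for 29.3% of all tested genes. The order 30M_216 above 30M_218 above 30M_220 was seen for 26 of 33, against 16.7% of all tested genes, and the exceptions were Oas3, Ddx58, Dhx58, Eif2ak2, Stat2, Parp14 and Samd9l. Median log2 CPM over the 6M mean was 2.16 in 30M_216, 0.816 in 30M_218 and 0.477 in 30M_220. The level in 30M_216 was 8.99 times that in 30M_220 for Ifi27l2a, 7.55 times for Ifit1, 6.14 times for Irf7 and 5.85 times for Isg15. The ratio was 1.37 for Ddx58 and 1.24 for Samd9l, the lowest of the 33.

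**Figure D4:**
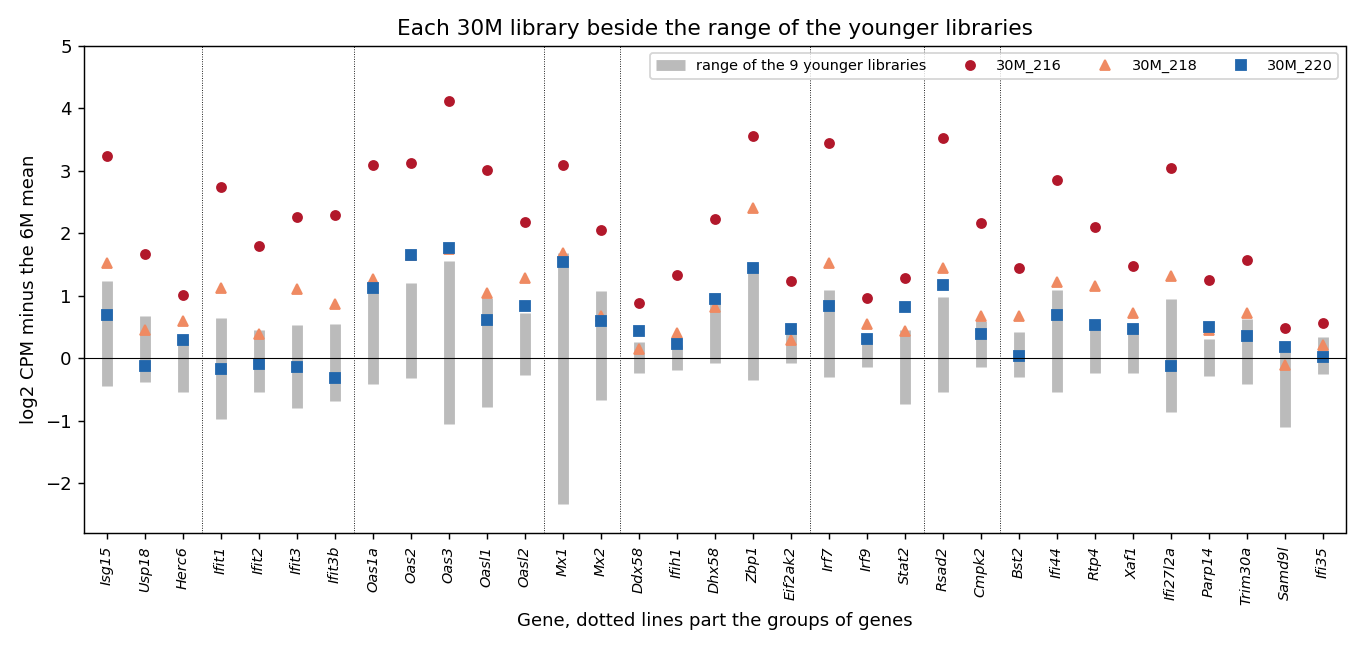
For each gene, log2 CPM over the 6M mean in 30M_216, 30M_218 and 30M_220 (symbols), beside the range of the 9 libraries of 6M, 12M and 20M (grey bars). The 30M_216 symbol is above the grey bar for all 33 genes, that of 30M_218 for 23 and that of 30M_220 for 12, and for the 4 Ifit genes 30M_220 lies inside the bar.

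The other 2 libraries of 30M carried part of the difference on their own. The 30M_218 library was above all 9 younger libraries for 23 of the 33 genes and 30M_220 for 12, against 17.8% and 13.6% of all tested genes (11.0% for 30M_216). All 3 were above all 6M libraries for 23 of 33, against 9.89% of all tested genes. They were above all 12M libraries for 19 (7.5%), above all 20M libraries for 8 (5.69%) and above all 9 younger libraries for 8 (2.90%). The last 8 were Oas1a, Oas2, Oas3, Oasl2, Ifih1, Irf9, Rsad2 and Parp14. Without 30M_216 the median log2 fold change against 6M was 0.613, and 3 of the 33 were called, Oas2, Oasl2 and Zbp1 (1.31% of all genes rose in that fit). Without 30M_220 it was 1.70, with 13 called (1.70% of all genes).

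Among the 20M libraries, 20M_213 was the highest for 28 of the 33 genes, against 39.0% of all tested genes. Its median over the 6M mean was 0.571, which was above that of 30M_220, while 20M_221 and 20M_222 had 0.201 and -0.229. The medians at 12M were 0.299, 0.0921 and 0.172 for 12M_206, 12M_207 and 12M_208. The correlation of each gene with the mean of the other 32 over the 12 libraries (log2 CPM, a description in which the points share depth and composition) was between 0.509 (Samd9l) and 0.984 (Irf7), with a median of 0.922. Without 30M_216 the median was 0.757.

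The ligands themselves were nearly absent from the counts. Of 18 genes for type I interferons, Ifnb1, all listed Ifna genes, Ifnab and Ifne were at 0 in every library, 16 in all. Ifnk had 2 counts and Ifnz 6 counts over the 12 libraries, none of them at 30M. A count of 0 allows up to 3 counts, or 0.194 to 0.246 CPM in a 30M library, and this limit covers counting error only. Ifng, the type II interferon made by T and NK cells, had 49 counts in all, with 0.484, 0.820 and 0.194 CPM in 30M_216, 30M_218 and 30M_220 and 0.224, 0.0825 and 0.162 CPM at 6M, too few to be tested.

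The rest of the pathway, 55 listed genes with the ligands, of which 34 were tested, moved less than its targets. Against 6M, 4 of the 34 rose and 0 fell, where 1.93% of all tested genes rose. At an unadjusted p under 0.05 there were 16 of the 34, against 11.6% of all genes. The median log2 fold change over the 34 was 0.38. Tlr7, the endosomal sensor of single-stranded RNA, was at 34.6, 16.4 and 18.8 CPM at 30M, against 5.90, 6.44 and 7.60 CPM at 6M (1.81, SE 0.309, adjusted p = 0.00976). Irf5, which acts downstream of Tlr7, rose by 0.90 (adjusted p = 0.0157) and Sting1, the adaptor for cytosolic DNA, by 0.83 (adjusted p = 0.0338). Ptpn6, the phosphatase SHP-1 of blood cells, rose by 1.07 (adjusted p = 0.00879). Each of these calls was lost without 6M_203 (up to 0.211 over the libraries left out), which was the only library whose omission ended the call of Ptpn6. Those of Tlr7, Irf5 and Sting1 were also lost without 6M_202, those of Irf5 and Sting1 without 30M_218, and that of Sting1 without 30M_216.

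Cgas, the sensor of cytosolic DNA, had a log2 fold change of 0.99 against 6M (adjusted p = 0.138) and was not called. The receptor chains Ifnar1 and Ifnar2 had 0.06 (adjusted p = 0.937) and 0.45 (adjusted p = 0.196), and Jak1 0.11 (adjusted p = 0.877). Against 12M, Tlr7 and Ptpn6 rose, where 0.657% of all tested genes rose. Both calls were lost with any 12M library or 30M_218 left out, that of Ptpn6 also without 30M_220, and that of Tlr7 also without any 6M library, 20M_221 or 30M_216 (up to 0.194). In the fits without a 12M library or without 30M_218, 0.00% to 0.192% of all genes rose against 12M. Against 20M, 0 of the 34 were called by edgeR (0.212% of all genes rose), with 10 at an unadjusted p under 0.05 (8.89% of all genes). DESeq2 called 5 of the 38 that it tested and limma voom 3 of the 34, where 0.818% and 1.02% of all genes rose.

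Markers of blood-derived cells followed these genes only in part. In 30M_216, 30M_218 and 30M_220, neutrophil markers summed to 709, 1290 and 284 CPM and B cell markers to 79.8, 76.3 and 287 CPM. T and NK cell markers summed to 74.4, 90.6 and 72.9 CPM there. The sums of plasma cell markers were 384, 378 and 270 CPM at 6M, and reached 4390 CPM in 12M_208 and 4230 CPM in 20M_222. In 30M_216, 30M_218 and 30M_220 they were 3640, 2770 and 2180 CPM, in the order of the 33 genes. The summed level of 6 monocyte markers had the same order within 30M, with 1030, 545 and 336 CPM in 30M_216, 30M_218 and 30M_220, against 371, 163 and 98.1 CPM at 6M and 133 to 280 CPM at 12M and 20M. Plac8 (376, 130 and 57.9 CPM), Ccr2, Ly6c2 and F13a1 had that order, whereas Treml4 was highest in 30M_220 (23.2, 17.9 and 29.4 CPM) and Nr4a1 had the reverse order (65.1, 87.1 and 97.0 CPM). Ly6c2, which marks classical monocytes and is itself known to respond to interferon, was at 226, 68.6 and 32.1 CPM at 30M, against 24.8, 16.6 and 15.3 CPM at 6M (2.53, SE 0.619, adjusted p = 0.0757). Of 6 monocyte markers, F13a1 and Treml4 rose against 6M by edgeR, and limma voom and DESeq2 called Ly6c2, Ccr2 and Plac8 as well. F13a1 lost that call without 6M_202 or 6M_203, and Treml4 without 6M_203. Of the interstitial macrophage markers C1qa, C1qb, C1qc, Adgre1 and Cd68 rose, and the list had sums of 512, 475 and 402 CPM at 30M, against 175, 182 and 149 CPM at 6M, a much narrower spread within 30M than that of the interferon-stimulated genes. The calls of these 5 held without each library in turn.

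Of 6 plasmacytoid dendritic cell markers, the cells best known for making type I interferon, 0 were called by edgeR or DESeq2, with 1 at an unadjusted p under 0.05 by edgeR, and limma voom called Siglech. Their sum was 31.7, 39.3 and 50.8 CPM in 30M_216, 30M_218 and 30M_220, against 26.3, 32.4 and 21.4 CPM at 6M. Most of this sum was Cox6a2 (13.9, 14.0 and 29.2 CPM) and Runx2 (8.31, 14.9 and 13.6 CPM). Siglech, at 5.08, 6.81 and 2.52 CPM, and Ccr9, at 2.18, 2.05 and 1.42 CPM, were both lowest in 30M_220. Of 7 T and NK cell markers, Cd3e and Cd3g rose, and of 5 plasma cell markers Jchain, Igkc and Igha rose. Those calls, except that of Igha, were lost with any 6M library left out, among others. Alveolar macrophage, neutrophil, B cell and skeletal muscle markers had 0 calls against 6M by edgeR, with 3, 0, 0 and 0 at an unadjusted p under 0.05. Of those 3 alveolar macrophage markers, Marco rose against 6M (log2 fold change 1.475) and the others fell (-0.70 and -0.95). The median of that list was -0.42. DESeq2 and limma voom called Marco and no other marker of these 4 lists. Lung markers had 0 calls by all 3 tools, and their sum was 42200 to 72900 CPM at 30M, against 63400 to 76000 CPM at 6M. The part of cell composition in the level of the interferon-stimulated genes was not tested.

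**Figure D5:**
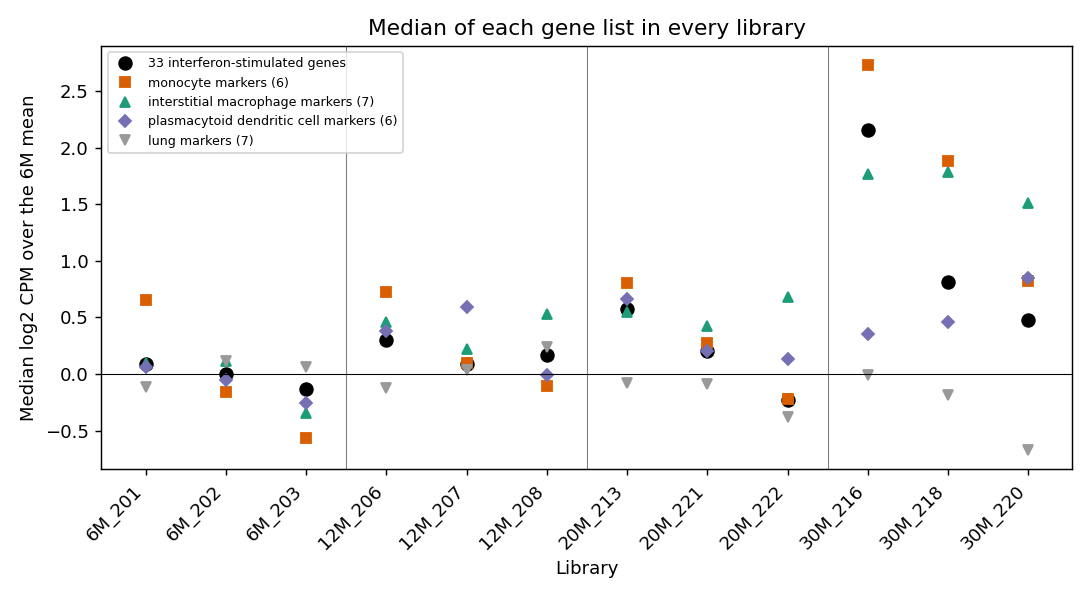
Median log2 CPM over the 6M mean in each library (ages from 6M to 30M) for the 33 genes and 4 marker lists, with the number of tested markers in brackets. The monocyte markers (2.73, 1.88 and 0.818) have the same order as the 33 genes (2.16, 0.816 and 0.477) over 30M_216, 30M_218 and 30M_220, whereas the interstitial macrophage markers are nearly level (1.77, 1.79 and 1.51).

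The genes outside these lists whose levels followed the 33 most closely were sought over the 12 libraries, by the correlation of log2 CPM with their mean profile. The highest were Ms4a4c (0.979, and 0.942 without 30M_216), Ifi204 (0.977 and 0.956), Phf11b (0.971 and 0.932), Fcgr1 (0.970 and 0.879) and Parp9 (0.969 and 0.916). Ifi204 belongs to the interferon-inducible sensors of DNA, Fcgr1 is the high-affinity receptor for IgG on monocytes and macrophages, and Parp9 is a partner of the ADP-ribosyltransferases. Ccl9 (0.969), Phf11d (0.968), Mmp12, the macrophage elastase (0.958), Phf11a (0.956) and Slfn8 (0.954) came next. Ifi204 averaged 53.5 ± 49.5 CPM at 30M and 7.19 ± 1.38 CPM at 6M, and Fcgr1 averaged 17.8 ± 18.9 CPM at 30M and 3.61 ± 0.948 CPM at 6M (SD, n = 3 each). None of the 10 was called by edgeR at 30M against 6M (adjusted p = 0.0585 to 0.163).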

How the data were processed

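Total RNA of whole lung was extracted with ISOGEN II, selected by poly-A and sequenced as read pairs, per the labels' protocols. The authors' deposited table holds unnormalized whole-number counts per gene. The submitters' processing notes name featureCounts without a version, HISAT2 2.1.0, Trimmomatic 0.38 and FastQC 0.11.7, with GRCm38 (mm10) as the build. Neither the annotation release nor the strand setting is stated there, which leaves counts of overlapping genes and near copies uncertain.

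Totals were 12152066 to 15058628 counts per library, and intervals and floors cover counting error only. No pair of libraries of the same age was a duplicate (chi-square per gene of 6.66 or more), and pairs across ages were not compared. All 12 libraries entered a single fit of edgeR 4.0.16 in R 4.3.3 (TMM, robust quasi-likelihood test, genes kept by filterByExpr over ages), with Benjamini-Hochberg adjustment over 18407 genes. A gene is called at an adjusted p under 0.05. Standard errors are the log2 fold change divided by the square root of F, and per-library log2 CPM used a prior count of 2. The test was also run on simulated counts. No outcome of that run is given here, so it lends no weight to the calls. In particular, it is no check on genes whose libraries of the same age differ widely. Alternatives were DESeq2 1.42.0, limma 3.58.1 voom with quality weights, other scaling and filters, and only the 2 ages compared. Each library was left out in turn, and 20M_221, 20M_222 and 30M_220 were removed or given a shared term. The quality weights, set per library from the data, were 0.9873, 0.802 and 0.3775 for 30M_216, 30M_218 and 30M_220. They were 0.4323, 2.011 and 0.876 for 20M_213, 20M_221 and 20M_222, and the lowest was 0.35 for 12M_208.

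GC content and exon lengths came from GENCODE M21 (GRCm38), which shares 55227 identifiers with the table. All 33 genes are named, with every library's value for called genes and for Isg15, Irf7, Ifit1, Ifit3, Mx1, Ddx58 and Bst2, and from other lists the called genes and a few with the smallest p. Further values at 30M and 6M were chosen after being seen. The members and all lists were chosen with earlier results of these data known. Of the pathway list, Tmem173 and Mb21d1 were matched by RefSeq synonym to Sting1 and Cgas. Some single genes of these lists, which remain in the counts and sums, are not reported here by name.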

Additional observations from a re-analysis of the deposited data

How the results depend on the processing

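No paired analysis was possible because the ages share no replicate number. All 33 estimates against 6M stayed above 0 under all alternatives run. Of the estimates against 12M and 20M, those of Usp18 turned, to -0.22 against 12M and -0.10 against 20M without 30M_216, where without 30M_220 they were 0.78 and 0.90, and those of the other 32 genes stayed above 0. Between the younger ages more turned: without 20M_213 the count above 0 was 14 in place of 26 for 20M against 6M, and 8 in place of 18 for 20M against 12M. Counts of the 33 called depended on the setting, and the cause was not tested. Against 6M (5 in the report), 12M (2) and by slope (12), there were 3, 1 and 6 with no count filter (1.07%, 0.523% and 1.30% of all genes rose). With only the 2 ages compared there were 0 against 6M and 0 against 12M (1.95% and 0.353%). Without 20M_221, 20M_222 and 30M_220 there were 16, 5 and 24 (1.76%, 0.633% and 2.64%), and with a term for them 18, 15 and 29 (2.53%, 1.39% and 3.65%). With limma voom there were 19 against 6M, 4 against 12M and 5 against 20M (3.10%, 0.962% and 1.02%). Its quality weights were 0.9873 for 30M_216, 0.802 for 30M_218 and 0.3775 for 30M_220. With DESeq2 there were 18, 12 and 6 (651, 409 and 266 of all 32511 genes rose). With each library left out in turn, counts ran from 0 to 13 against 6M, 0 to 5 against 12M, 0 to 2 against 20M and 4 to 16 by slope, and the median log2 fold change against 6M from 0.613 (without 30M_216) to 1.70 (without 30M_220). Against 6M there were 0 without 6M_201 (1.12% of all genes rose), 1 without 6M_202 (0.642%) and 0 without 6M_203 (0.355%). There were 3 without 12M_206, 20M_221 or 30M_216 (1.70%, 1.74% and 1.31%) and 13 without 30M_220 (1.70%). Over all fits with 1 library left out, the share of all genes that rose ran from 0.355% to 2.09% against 6M. It ran from 0.00% to 0.765% against 12M, 0.00% to 0.400% against 20M and 1.19% to 3.05% by slope. DESeq2's size factors and a filter of at least 1 CPM in 3 libraries left each of these counts within 1.5 times. Precision was limited by 3 libraries per age and by each gene's spread: Usp18, with an estimate of 0.86 and an SE of 0.389, was not called, while Sting1, with 0.83 and 0.181, was.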
